A study of Rattus norvegicus with 20 samples.

Results

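Kidneys of rats given cyclosporine A were compared with kidneys of rats given its saline vehicle, gene by gene, across the nephron and across the main pathways of the organ. All 8 libraries of the 2 groups were used, of 20 libraries in the series. The features described were the protein-coding nuclear genes of the deposited table. The table held 22280 of them, and 11005 were tested because at least 4 libraries reached a rescaled FPKM of 0.5. FPKM is the number of sequenced fragments of a gene relative to its length and to the total fragments of the library, and rescaled FPKM is that value after the mitochondrial genes were dropped and the libraries were brought to a common scale over nuclear genes.

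All animals were male wild-type Wistar rats, 10 to 12 weeks old. A minipump under the skin delivered cyclosporine A (n = 4) or saline (n = 4) for 28 days, and RNA was taken from the entire kidney, 1 library per animal. Each library therefore averages every cell type of the organ, and fewer cells of a type and less RNA per cell cannot be told apart in it. Values given per library are in the order of replicates 1, 2, 3 and 4, and replicate numbers of the 2 groups do not match animals to each other.

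Cyclosporine A binds cyclophilin inside the cell, and the complex blocks calcineurin, the calcium-activated phosphatase that releases NFAT transcription factors into the nucleus. The drug prevents rejection of transplants and is known for side effects in the kidney, among them narrowing of the afferent arteriole, tubular damage, interstitial fibrosis, high blood pressure and loss of magnesium. Along the nephron, the podocytes of the glomerulus filter plasma, the proximal tubule takes back most solutes and secretes drugs, the thick ascending limb takes back salt and magnesium, the distal convoluted and connecting tubules adjust calcium, magnesium and sodium, and the collecting duct adjusts water, potassium and acid.

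Defining genes of the kidney tubule were present in all 8 libraries. Umod (uromodulin of the thick ascending limb) lay between 86.6 and 465 rescaled FPKM, Slc34a1 (the proximal phosphate transporter) between 75.7 and 206, Aqp2 (the water channel of principal cells) between 46.7 and 108, Atp6v1g3 (a proton pump subunit of intercalated cells) between 36.9 and 102, Lrp2 (megalin) between 10.2 and 28.4 and Slc12a3 (the thiazide-sensitive cotransporter) between 4.39 and 18.7. Of genes that mark tissue around the kidney, 0 of 8 adrenal cortex genes and 0 of 7 skeletal muscle genes passed the filter. Their summed levels were at most 1.39 and 2.75 rescaled FPKM in any library. Adipocyte genes were present, and 8 of 13 passed. They summed to 41.0 to 88.9 with saline and 50.2 to 82.6 with cyclosporine A, and the part of fat around the kidney in these levels was not tested.

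The libraries differed in composition before any gene was compared. Fragments assigned to genes numbered 30467652 to 34307942, but 59.8% ± 7.97 (SD, n = 4) of them came from the mitochondrial genome with saline and 84.7% ± 4.68 (SD, n = 4) with cyclosporine A. Every drug library lay above every saline library, and a 2-sided exact permutation test over the 70 arrangements gave p = 0.0286, its smallest possible value (adjusted p = 0.0476 over 5 library measures). That left 10282872 to 17255791 nuclear fragments per saline library and 2905422 to 6548795 per cyclosporine A library, so the levels of low genes are less precise with the drug. Cyclosporine A replicate 4 stood apart, with the fewest nuclear fragments, the highest mitochondrial share (90.8%) and the highest haemoglobin level. The share and the treatment run together in these animals and cannot be told apart.

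**Figure D1:**
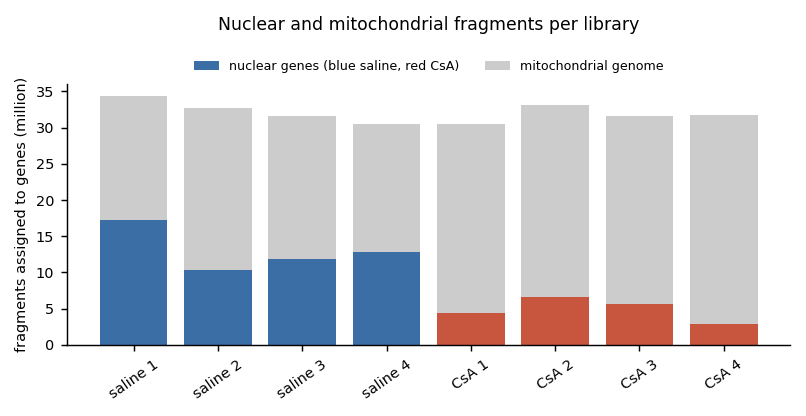
Fragments assigned to genes in each library, split into nuclear genes (coloured, blue for saline vehicle and red for cyclosporine A, abbreviated CsA) and the mitochondrial genome (grey). Totals are alike, while the coloured part is at least 10282872 fragments in each saline library and at most 6548795 in each cyclosporine A library.

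The first question was which protein-coding genes differed between the groups. With limma on log2(rescaled FPKM + 1) and Benjamini-Hochberg adjustment over all nuclear genes tested, 87 of 11005 genes (0.791%) were called at an adjusted p under 0.05. Of these 42 (0.382%) were higher and 45 (0.409%) were lower with cyclosporine A. In all 87 the 4 drug libraries lay outside the range of the 4 saline libraries, as they did in 1278 genes (11.6%) of all tested, 534 higher (4.85%) and 744 lower (6.76%). At an unadjusted p under 0.05 there were 1878 genes (17.1%), 803 higher (7.3%) and 1075 lower (9.77%), and the median log2 fold change of all genes was −0.011. Called rises ran from 0.53 to 2.22 and called falls from −0.48 to −1.85 on the log2 scale. Only 13 of the 87 had a mean of under 100 fragments per library.

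The number of called genes changed with single libraries and with the mitochondrial share as a term. Without cyclosporine A replicates 1, 2, 3 and 4 limma called 8, 98, 2 and 112 protein-coding genes, and without saline replicates 1, 2, 3 and 4 it called 9, 16, 0 and 0, with 1609 and 1519 genes at an unadjusted p under 0.05 in the last pair. With the mitochondrial share of each library as a term beside the treatment, limma called 0 genes and 323 had an unadjusted p under 0.05. Of the 87 called genes 86 kept their direction in that fit and 35 kept an unadjusted p under 0.05. Their median size went from 0.90 to 0.64 on the log2 scale, and their median standard error from 0.16 to 0.35. The share did not overlap between the groups, so it and the treatment cannot be told apart by this fit. A call is therefore a statement about these 8 libraries on this scale, and groups of genes are described by how many members did not overlap and by their median. With 1 library left out more genes were apart over the whole table too, 6.01% to 7.75% higher and 7.87% to 10.1% lower, and list counts under such a fit are to be read against those shares.

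**Figure D2:**
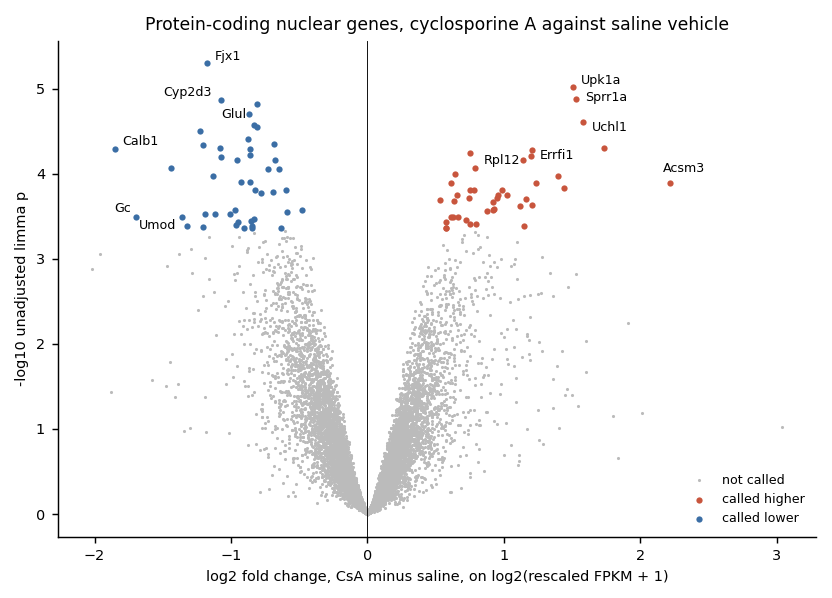
Log2 fold change, cyclosporine A (CsA) minus saline, on the log2(rescaled FPKM + 1) scale against −log10 of the unadjusted limma p, 1 point for each of 11005 protein-coding nuclear genes. The 42 genes called higher are red, the 45 called lower are blue, and called genes begin at 0.53 above and 0.48 below zero (log2 fold change −0.48).

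Uchl1, Sprr1a and Krt15 were among the large called rises. Uchl1, a ubiquitin hydrolase best known from neurons, was 1.6, 1.59, 0.601 and 0.682 with saline and 6.65, 3.89, 5.46 and 4.99 with cyclosporine A. The groups were far apart for a gene at this level, with a log2 fold change of 1.58 ± 0.21 (SE, limma adjusted p = 0.025). Sprr1a, a cross-linked envelope protein of stratified epithelium, was 1.44, 1.1, 0.991 and 0.846 with saline and 6.52, 5.68, 5.27 and 3.18 with cyclosporine A, a log2 fold change of 1.53 (limma adjusted p = 0.022). Krt15, a keratin of basal epithelial cells, rose from 0.838 ± 0.441 (SD, n = 4) to 2.97 ± 0.226 (SD, n = 4). Sprr1a was called in 17 of the 22 alternative settings tried, Uchl1 in 15 and Krt15 in 13. Among the other called genes named, the count ran from 6 for Mark2, 7 for Ptges, 8 each for Umod, Slc12a1 and Megf11 and 9 for Gc up to 17 for Fjx1.

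Several called rises were in enzymes and signalling proteins. Errfi1, an inhibitor of the epidermal growth factor receptor, was 8.05, 7.21, 7.24 and 6.85 with saline and 15.2, 13.3, 24.4 and 21.6 with cyclosporine A (log2 fold change 1.20, limma adjusted p = 0.0251). The saline libraries were close together and each drug library was well above them. Phgdh, the first enzyme of serine synthesis, was 2.65, 2.74, 2.29 and 1.82 with saline and 9.22, 5.48, 6.96 and 4.38 with cyclosporine A, and Prodh2, a hydroxyproline dehydrogenase, was 4.27, 5.32, 3.8 and 3 against 7.22, 13.4, 13.7 and 9.34. Both rose without overlap, by 1.12 and 1.20 on the log2 scale. The kinases Cdkl1 (log2 fold change 1.16) and Mark2 (1.15), Ptges, which makes prostaglandin E2 (0.88), and Sat1, which acetylates polyamines for their breakdown (0.53), were called higher as well. Acsm3, a medium-chain acyl-CoA synthetase, had the largest rise of the called genes (2.22), with drug libraries at 22.1, 22.7, 33 and 7.94. A larger log2 fold change (3.04) was that of Ndufa1, a subunit of respiratory complex I named after its values had been seen, which was 113, 0.68, 0.969 and 2.42 with saline and 70.2, 134, 257 and 1.39 with cyclosporine A. Each group held both high and low libraries, and it was not called (limma adjusted p = 0.385).

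Among called falls, Fjx1, a secreted Golgi-linked protein of the planar polarity pathway, had the smallest p. Its level was 7.69, 8.14, 7.08 and 6.82 with saline and 2.32, 3.36, 3.05 and 2.32 with cyclosporine A. Both groups were tight, and the fall was 1.17 ± 0.13 on the log2 scale (log2 fold change −1.17, limma adjusted p = 0.0192). Fjx1 (ENSRNOG00000005347, chromosome 3, 92288818 to 92290919) was called in 17 of 22 alternative settings. Pamr1, which lies close by on the same chromosome in the table, at 92403582 to 92502089, fell as well, from 7.6 ± 0.711 (SD, n = 4) to 3.01 ± 1.03 (SD, n = 4).

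Apoc2, the cofactor of lipoprotein lipase, was 2.73, 1.76, 2.14 and 3.31 with saline and 0.487, 0.454, 0.263 and 0.799 with cyclosporine A. It fell by 1.21 on the log2 scale, and its mean was 46.6 fragments per library. Gc, the vitamin D-binding protein (log2 fold change −1.70), Aldh1b1, a mitochondrial aldehyde dehydrogenase (−1.44), Megf11 (−1.32), Ptprn, a protein of dense-core vesicles (−1.12), and Rarres1 (−1.08) fell without overlap. Pld6, a phospholipase of the mitochondrial surface, was 1.49, 2.1, 2.05 and 1.61 with saline. With cyclosporine A it was listed at 0 in replicates 1 and 4 and at 0.419 and 0.436 in the others. Every drug value of Pld6 was under the filter of 0.5, so it was tested through the saline libraries alone. Slc23a3, a membrane transporter of the ascorbate transporter family, fell by 1.07, with saline libraries at 26.9, 29.7, 23 and 25.9 and drug libraries at 11.8, 16.5, 9.4 and 11.

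**Figure D3:**
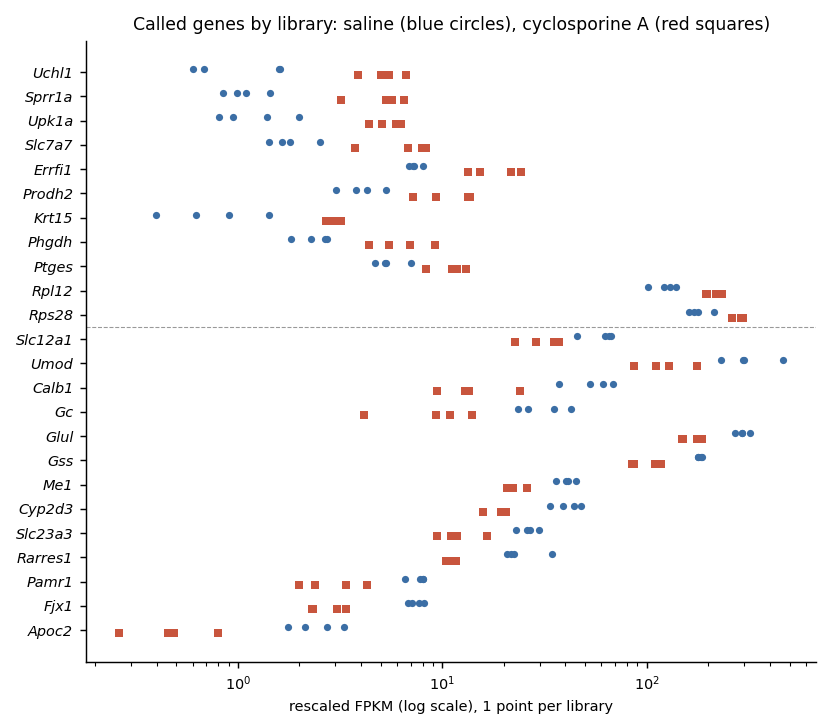
Rescaled FPKM on a log axis of 24 called genes, 1 point per library, saline vehicle as blue circles and cyclosporine A as red squares. The 11 genes above the dashed line were higher and the 13 below it lower with cyclosporine A, and in none of them do circles and squares overlap.

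The second question was where along the nephron the differences lay, read from lists of genes known to mark each segment. The late proximal tubule, the straight part that borders the medulla, had the lowest median of the segments. All 17 of its tested genes lay below 0, with a median log2 fold change of −0.58, 12 had an unadjusted p under 0.05, 6 did not overlap (all lower, against 6.76% of all genes) and 1 was called (against 0.409%). Aadat, a mitochondrial aminotransferase of kynurenine and aminoadipate, was 996, 1045, 952 and 954 with saline and 567, 669, 606 and 412 with cyclosporine A, a fall of 0.83 on the log2 scale (limma adjusted p = 0.0466). The other members were not called. Slc7a13, the aspartate, glutamate and cystine transporter of this segment, was 1100, 1217, 917 and 1015 with saline and 690, 900, 652 and 414 with cyclosporine A. Slc5a10, a mannose and fructose transporter, was 20.6, 23.3, 21 and 21.9 against 10.2, 13.4, 14.5 and 6, and Acy3, an aminoacylase, was 305, 327, 260 and 279 against 175, 248, 195 and 169. In each of these the groups were apart, and cyclosporine A replicate 4 was the lowest library. The median of the list was −0.46 without that replicate and stayed below that of all genes, by 0.20 on the log2 scale, with the mitochondrial share as a term (−0.20).

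The early proximal tubule was mixed. Of 23 genes tested, 2 were called, both higher (against 0.382% of all genes), 4 did not overlap on the higher side and 6 on the lower side (against 4.85% and 6.76% of all genes), and the median was −0.24. Without cyclosporine A replicate 4 the median was −0.014. It lay above that of all genes by 0.42 with the mitochondrial share as a term, so its direction turned. Slc5a2, the glucose cotransporter SGLT2, was 0.317, 0.495, 0.108 and 0.191 with saline and 1.55, 1.56, 1.84 and 0.845 with cyclosporine A. Its log2 fold change was 0.93 at a mean of 48.4 fragments per library (limma adjusted p = 0.0427). Every saline value was under the filter of 0.5, so Slc5a2 was tested through the drug libraries alone. Its call and its place among the 4 genes apart on the higher side are therefore no separate support. Slc7a7, the basolateral carrier of lysine and arginine, was the other called gene (1.40). Gatm, the first enzyme of creatine synthesis, was 59.3, 67, 38.1 and 35.9 with saline and 106, 84.9, 108 and 79.9 with cyclosporine A and was not called (limma adjusted p = 0.0752). On the lower side, Lrp2 was 28.4, 24.2, 19.5 and 22 with saline and 14.7, 19.2, 18.8 and 10.2 with cyclosporine A, and Slc3a1, a subunit of the cystine transporter, was 697, 662, 586 and 690 against 438, 557, 501 and 302. Neither was called, and with the mitochondrial share as a term both turned, to 0.24 for Lrp2 and 0.067 for Slc3a1. Slc34a1 overlapped, with a log2 fold change of −0.0092 that turned to 0.23 without cyclosporine A replicate 4.

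Genes of the drug-handling machinery, which sits mainly in the proximal tubule, lay mostly on the lower side. Of 48 organic ion and ABC transporters tested, 0 were called, 8 did not overlap, all lower (against 6.76% of all genes), and 15 were lower at an unadjusted p under 0.05 (against 9.77%). The median was −0.15. Without saline replicate 3 or cyclosporine A replicate 2 the lower count was 13, and without cyclosporine A replicate 3 the median was −0.23. Slco4c1, an organic anion transporter, was 7.02, 6.53, 7.18 and 6.38 with saline and 3.32, 5.23, 3.18 and 2.89 with cyclosporine A. Slc22a4, the ergothioneine transporter, was 2.65, 2.57, 1.81 and 2.77 against 1.49, 0.646, 1.07 and 1.21. Slco1a6 was 126, 169, 200 and 215 against 96.4, 107, 87.1 and 120. These 3 were apart in every library and missed the threshold (limma adjusted p 0.0601, 0.0764 and 0.08).

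Of 27 cytochrome P450 genes tested, 1 was called (against 0.409% of all genes on the lower side) and 6 did not overlap, all lower (against 6.76%, median −0.40). Without saline replicate 3 the number apart was 10. Cyp2d3, which was called, was 47.8, 39.1, 33.8 and 44.3 with saline and 20.5, 20.3, 19.3 and 15.8 with cyclosporine A (log2 fold change −1.08 ± 0.13 SE, limma adjusted p = 0.022). Cyp2c11, a male-specific enzyme of the rat, was 10.6, 16.1, 8.55 and 10.4 against 4.32, 4.03, 1.77 and 0.0867, and Cyp4f1 was 41.5, 37.3, 38.6 and 43 against 19.9, 27.6, 29.5 and 17.1. Neither passed, and genes of these families share sequence, so fragments may be split between copies. With the mitochondrial share as a term the medians of the transporters and of the P450 genes lay 0.13 and 0.075 above that of all genes, so both turned.

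In the thick ascending limb 2 of 14 genes tested were called and 3 did not overlap, all lower (against 0.409% and 6.76% of all genes), with a median of −0.25, which was −0.14 without saline replicate 1. Umod fell by 1.36 and Slc12a1, the furosemide-sensitive cotransporter, by 0.94 on the log2 scale. Cldn10, the claudin that passes sodium between the cells of this segment and chloride in the proximal tubule, was 59.4, 51.7, 57.2 and 60 with saline and 41.6, 47.3, 48.3 and 31.9 with cyclosporine A and was not called (limma adjusted p = 0.154). With the mitochondrial share as a term the log2 fold change was 0.059 for Umod, −0.15 for Slc12a1 and 0.10 for Cldn10, so Umod and Cldn10 turned. Of 13 claudins, the tight junction proteins that set paracellular transport, 2 were called (against 0.409% of all genes on the lower side) and 3 did not overlap, all lower (against 6.76%). Of the 13, 7 lay above 0 and the median was 0.018. Cldn2, the leaky claudin of the proximal tubule, was 38.9, 36.3, 33.6 and 37.3 with saline and 18.6, 23.2, 20.5 and 12.1 with cyclosporine A. Cldn3 was 11.2, 9.38, 8.17 and 7.64 against 3.78, 4.9, 4.32 and 5.11. Both fell without overlap, by 0.97 and 0.86.

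The distal convoluted and connecting tubule had 1 called gene among 20 (against 0.409% of all genes on the lower side), and the same gene was the only one of the list whose groups did not overlap, a share below the 6.76% of all genes (median −0.065). That gene was Calb1, calbindin, at 37, 61.3, 68.7 and 52.7 with saline and 12.9, 9.43, 13.6 and 24 with cyclosporine A. Slc12a3 was 14.2, 13.5, 5.45 and 5.38 with saline and 11.3, 13.7, 18.7 and 4.39 with cyclosporine A. Its groups overlapped and the spread within them exceeded the difference.

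Principal cells of the collecting duct had the highest median of the nephron segments. Of 17 genes tested, 0 were called, 5 did not overlap on the higher side (against 4.85% of all genes) and 1 on the lower side (against 6.76%), and the median was 0.30. Kcne1, a potassium channel subunit, was 3.29, 4.41, 4.16 and 2.74 with saline and 10, 6.39, 5.15 and 9.46 with cyclosporine A. Gata3, a transcription factor of the collecting duct, was 2.74, 3.12, 2.02 and 2.6 against 4.27, 3.85, 4.41 and 4.79. St6gal1, a sialyltransferase, went the other way, at 43.2, 47, 39.1 and 40.7 against 22.6, 33.5, 17.1 and 20.3. The groups were apart in these 3, and none was called (limma adjusted p 0.0835, 0.0802 and 0.0655). Aqp2 was 66.5, 50.8, 73.7 and 95.9 with saline and 97.4, 46.7, 57.3 and 108 with cyclosporine A, a log2 fold change of 0.061 that turned to −0.13 without cyclosporine A replicate 4.

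Of 16 genes of the thin limb and inner medulla 0 were called, 3 did not overlap on the lower side (against 6.76% of all genes) and 1 on the higher side, near the 4.85% of all genes, and the median was 0.048, with −0.15 to 0.25 when 1 library was left out. Cryab, a small heat shock protein abundant in the inner medulla, was 188, 177, 191 and 199 with saline and 99.1, 127, 59.1 and 105 with cyclosporine A (limma adjusted p = 0.0635). S100a6, a calcium-binding protein, was the higher one, at 62.6, 32.2, 60.8 and 64.6 against 126, 96.5, 77.3 and 160.

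Intercalated cells, podocytes, fibroblasts and endothelium had at most 2 genes apart each. Of 18 intercalated cell genes 0 were called and 0 did not overlap, with Atp6v1g3 at 36.9, 59, 73.2 and 78.7 with saline and 97.5, 56.2, 61.2 and 102 with cyclosporine A. Podocytes had 1 of 11 not overlapping, lower, fibroblasts 1 of 7, higher, and endothelium 1 higher and 1 lower of 15, where 4.85% of all genes were apart on the higher side and 6.76% on the lower. Plvap, the diaphragm protein of fenestrated peritubular capillaries, was 18.8, 4.46, 18.3 and 15.2 with saline and 1.2, 2.14, 3.4 and 3.82 with cyclosporine A. Its groups were apart but saline replicate 2 lay close to the drug libraries, and it was not called (limma adjusted p = 0.0693). Eng, the endothelial co-receptor endoglin, was 5.63, 3.41, 4.77 and 5.02 against 2.21, 3.67, 2.86 and 2.84, with overlap, and turned to 0.14 with the mitochondrial share as a term. Sox17, a transcription factor of arterial endothelium, was the higher one, at 1.58, 1.51, 1.04 and 1.17 with saline and 2.59, 1.73, 2.59 and 4.06 with cyclosporine A (limma adjusted p = 0.129).

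Among lists of cells outside the nephron, the urothelial one held called genes. Of 11 urothelial genes tested, 2 were called (Upk1a and Sprr1a, against 0.382% of all genes on the higher side), 5 did not overlap, all higher (against 4.85% of all genes), and the median was 0.47, while the summed level of the list was 96.0 to 109 with saline and 105 to 122 with cyclosporine A. Upk1a, a plaque protein of the renal pelvis lining, was 1.99, 1.38, 0.806 and 0.951 with saline and 4.4, 5.93, 6.27 and 5.08 with cyclosporine A. Upk1b was 0.304, 0.104, 0.457 and 0.423 against 1.27, 2.08, 1.26 and 0.597. Every saline value of Upk1b was under the filter of 0.5, so it was tested through the drug libraries alone. It is 1 of the 5 genes apart and no separate support. Krt15, above, is a basal epithelial gene as well. The 5 red cell genes in the table summed to 264 to 733 with saline and 419 to 4308 with cyclosporine A, highest in replicate 4, and their groups overlapped. Of 20 leukocyte genes 13 were below the filter, 1 of them at 0 in every library. The other 7 were tested, 0 were called and 0 did not overlap, at a summed level of 107 to 194 against 112 to 255. The part of urothelial and blood content in the rises of these and other genes was not tested.

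**Figure D4:**
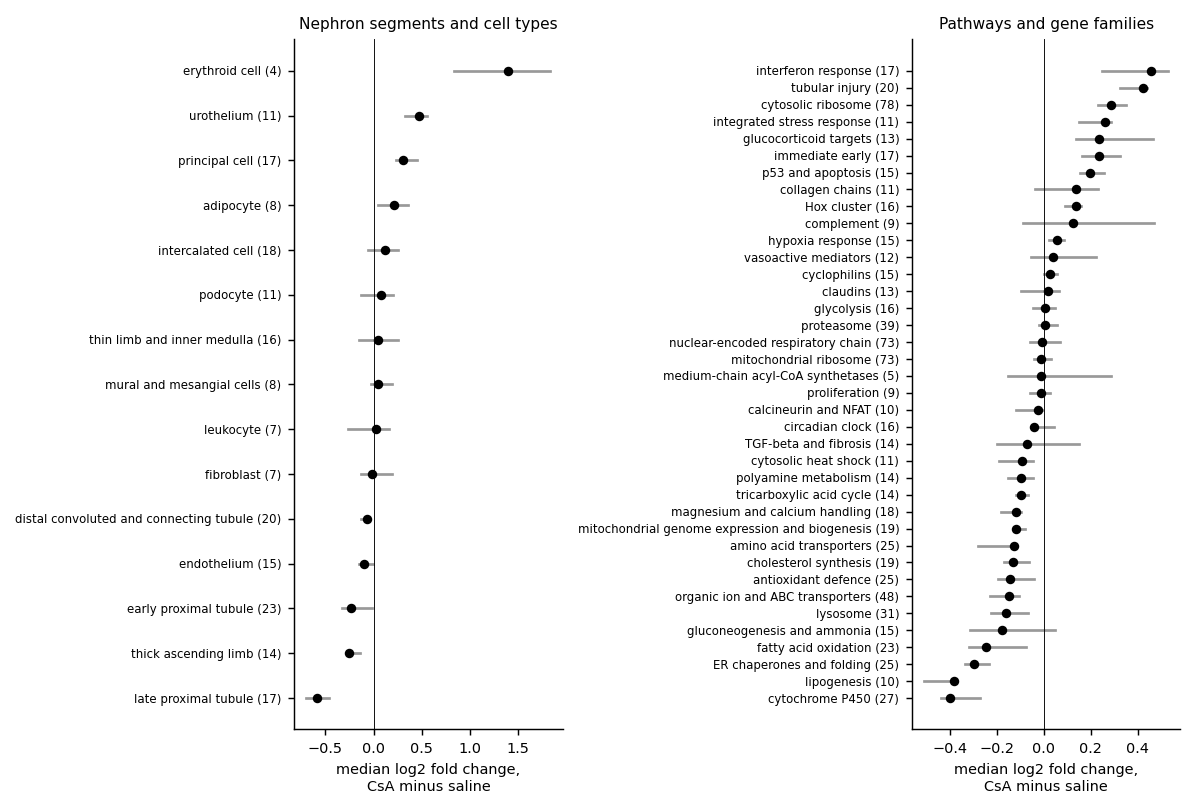
Median log2 fold change of gene lists (black points), cyclosporine A (CsA) minus saline, with the number of genes tested in parentheses. Grey lines run from the lowest to the highest median when 1 of the 8 libraries was left out. The late proximal tubule is at −0.58 and principal cells at 0.30 among nephron segments, and interferon genes at 0.45 and cytochrome P450 genes at −0.40 among pathways.

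The third question was which pathways shifted. Cytosolic ribosomal proteins, the structural proteins of the machine that makes protein, had the largest number of separated members among the 56 lists, though not the largest share, since 45.5% of the urothelial and 43.5% of the early proximal genes were apart. Of 78 genes tested 71 lay above 0, with a median of 0.29. The groups did not overlap in 31, all higher, which is 39.7% of the list against 4.85% of all genes, and 3 were called (against 0.382%). Rpl12 was 129, 139, 121 and 101 with saline and 235, 217, 198 and 196 with cyclosporine A (log2 fold change 0.79 ± 0.12 SE, limma adjusted p = 0.028). Rps28 was 170, 161, 177 and 212 against 292, 294, 288 and 261, and Rpl37 was 34.2, 36.9, 40.2 and 41 against 69.5, 52.8, 57.8 and 55.9. All 3 rose, by 0.79, 0.66 and 0.62.

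The ribosomal values kept their direction with single libraries left out. Without saline replicate 3 the number not overlapping on the higher side was 49 (62.8%, beside 6.8% of all genes), without each other library it was 31 to 35, and the median was 0.23 to 0.35. With the mitochondrial share as a term the median lay 0.21 above that of all genes. FPKM as deposited differ from the rescaled values by 1 factor per library, and through the pseudocount abundant genes take more of such a shift than low ones. On that scale the median of all genes was −0.98 and that of the list lay −0.0047 from it, which says nothing on the direction of an abundant list. Ribosomal protein genes have many processed copies in the genome, and the 78 identifiers carried 66 symbols, 7 of them more than once. Among the 59 genes with a symbol of their own 27 did not overlap, all higher, and the median was 0.31. Their transcripts are short. Over all genes the Pearson correlation of length with log2 fold change was −0.079 across genes, which are not independent replicates, and the median was 0.012, −0.027 and −0.012 in 3 equal classes from the shortest to the longest genes. Mitochondrial ribosomal proteins had 1 of 73 genes not overlapping, lower, and a median of −0.010, and 73 nuclear-encoded subunits of the respiratory chain had a median of −0.0098 with 2 higher and 4 lower without overlap. Neither list exceeded the shares of all genes, 4.85% higher and 6.76% lower. The difference between these lists and the cytosolic one was not tested.

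Chaperones and folding enzymes of the endoplasmic reticulum lay lower. These proteins fold secreted and membrane proteins, and the unfolded protein response raises them together when unfolded protein builds up. Of 25 genes tested 21 lay below 0, with a median of −0.30. Without overlap 6 were lower (against 6.76% of all genes) and 1 was higher (against 4.85%), 10 were lower at an unadjusted p under 0.05 (against 9.77%), and 0 were called. Hyou1, a chaperone of the HSP70 class, was 3.68, 3.23, 3.03 and 3.39 with saline and 2.44, 2.07, 2.1 and 1.79 with cyclosporine A. Herpud1, which serves the disposal of misfolded protein, was 26.9, 34.7, 26.2 and 27 against 21, 21.6, 22.3 and 16.5, and Pdia6, a disulphide isomerase, was 25.1, 23.9, 23.5 and 25.9 against 18.4, 22.7, 15.9 and 17. Their log2 fold changes were −0.48, −0.48 and −0.40, with limma adjusted p of 0.0888, 0.118 and 0.134.

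Other members were named after their values had been seen, because their promoters hold the element described next. Hsp90b1 (GRP94, the reticulum's HSP90) was 30.2, 29.9, 30.9 and 36.6 with saline and 27.8, 26.9, 21.5 and 22.2 with cyclosporine A. Calr, the calcium-binding chaperone calreticulin, was 92.1, 81.2, 82 and 96.2 against 69.6, 77.3, 69.6 and 57.5, and Canx, its membrane-bound partner calnexin, was 37.2, 34.4, 36.7 and 37.5 against 29.3, 31.9, 30.4 and 25.4. The groups did not overlap in these 3. Hspa5 (BiP, the master chaperone) was 40.1, 38.3, 39.7 and 46.2 against 38.7, 36.2, 25.8 and 29, and its groups overlapped. Calr turned to 0.079 with the mitochondrial share as a term, where the median of the list lay 0.034 below that of all genes.

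The ER stress response element, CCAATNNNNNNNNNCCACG, is the sequence through which the unfolded protein response is known to act on these genes. It was searched on both strands in RefSeq promoters of assembly GRCr8, windows of 300 bases from 250 before to 50 after the start of the gene, which were matched by symbol. It was found in 22 of 33469 promoters (0.0657%). Of the 20 list genes with a promoter there, the element was found in 7, and the log2 fold changes of all 7 lay below 0, with a median of −0.35. Calr, Canx and Hsp90b1, 3 of the 7, did not overlap. Of the 13 without it 10 lay below 0 and 2 were lower without overlap, with a median of −0.16, and the difference was not tested. A match is a description of the letters. The elements are shown 5′ to 3′ on the strand on which they read, with the fixed bases of the element in capitals, so that the fixed and free bases of the 7 holders can be compared.
Calr element, 232 to 214 bases before the start on the opposite strand: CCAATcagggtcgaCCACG
Canx element, 230 to 212 bases before the start on the gene strand: CCAATcatcacgctCCACG
Creld2 element, 145 to 127 bases before the start on the opposite strand: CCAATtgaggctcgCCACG
Dnajc3 element, 133 to 115 bases before the start on the gene strand: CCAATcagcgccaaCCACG
Hsp90b1 element, 176 to 158 bases before the start on the gene strand: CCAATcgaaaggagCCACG
Hsp90b1 element, 72 to 54 bases before the start on the opposite strand: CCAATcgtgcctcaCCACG
Hspa5 element, 43 to 25 bases before the start on the gene strand: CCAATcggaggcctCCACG
Xbp1 element, 65 to 47 bases before the start on the gene strand: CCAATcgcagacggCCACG

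The upstream windows of 4 of these genes follow, 5′ to 3′ on the strand of the gene, ending at the base before the start, with GRCr8 positions. Capitals mark the fixed bases of the element, which read as CGTGG and ATTGG where the element lies on the opposite strand. Hsp90b1 holds a pair of elements, Hspa5 a single one close to the start, and Calr and Canx a single one far from it.
Calr upstream window, chr19:40213117-40213366, plus strand: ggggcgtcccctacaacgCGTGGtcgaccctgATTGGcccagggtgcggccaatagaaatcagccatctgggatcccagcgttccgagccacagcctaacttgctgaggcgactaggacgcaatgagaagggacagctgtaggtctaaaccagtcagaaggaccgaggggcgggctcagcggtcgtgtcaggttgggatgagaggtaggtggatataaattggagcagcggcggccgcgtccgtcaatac
Canx upstream window, chr10:35157858-35158107, minus strand: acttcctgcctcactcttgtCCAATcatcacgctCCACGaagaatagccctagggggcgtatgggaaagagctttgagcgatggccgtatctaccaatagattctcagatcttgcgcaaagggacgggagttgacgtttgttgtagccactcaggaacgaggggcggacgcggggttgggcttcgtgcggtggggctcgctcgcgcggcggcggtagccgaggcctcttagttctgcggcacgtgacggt
Hsp90b1 upstream window, chr7:23012294-23012543, minus strand: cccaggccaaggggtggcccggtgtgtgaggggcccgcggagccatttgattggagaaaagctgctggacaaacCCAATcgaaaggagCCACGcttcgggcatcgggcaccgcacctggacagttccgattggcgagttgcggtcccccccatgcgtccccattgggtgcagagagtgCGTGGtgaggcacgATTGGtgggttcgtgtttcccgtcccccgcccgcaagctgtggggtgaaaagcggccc
Hspa5 upstream window, chr3:38452766-38453015, plus strand: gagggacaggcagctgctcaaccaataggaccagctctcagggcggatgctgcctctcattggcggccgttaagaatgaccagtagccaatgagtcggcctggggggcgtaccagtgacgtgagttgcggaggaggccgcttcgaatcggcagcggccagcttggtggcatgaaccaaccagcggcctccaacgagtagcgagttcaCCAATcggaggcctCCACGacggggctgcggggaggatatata

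Hspa5 had the element nearest to its start among these 4 and overlapped between the groups. The remaining holders were Creld2 (log2 fold change −0.35), Dnajc3 (−0.41) and Xbp1 (−0.15), a transcription factor of the same response, and all 3 overlapped. In the integrated stress response, a related pathway that slows protein synthesis and raises amino acid enzymes, 1 of 11 genes was called (against 0.382% of all genes), Phgdh, and 2 did not overlap, both higher (against 4.85% of all genes, median 0.26, and 0.15 without cyclosporine A replicate 1). Asns, asparagine synthetase, was the other, at 1.06, 1.39, 1.03 and 1.16 with saline and 2.21, 1.65, 3.12 and 1.59 with cyclosporine A. In the cytosolic heat shock list 0 of 11 were called and 3 did not overlap, all lower (against 6.76% of all genes). Hsp90ab1, the constitutive HSP90 of the cytosol, was 127, 121, 131 and 130 with saline and 112, 106, 84.9 and 88.4 with cyclosporine A, and Hspd1, the mitochondrial chaperonin HSP60, was 104, 96.2, 105 and 103 against 79.5, 93.2, 94 and 69.2. Hspd1 turned to 0.077 with the mitochondrial share as a term. Hspb8, a small heat shock protein, was 1.26, 0.64, 0.442 and 1.08 against 2.57, 2.56, 1.1 and 0.666, with overlap.

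**Figure D5:**
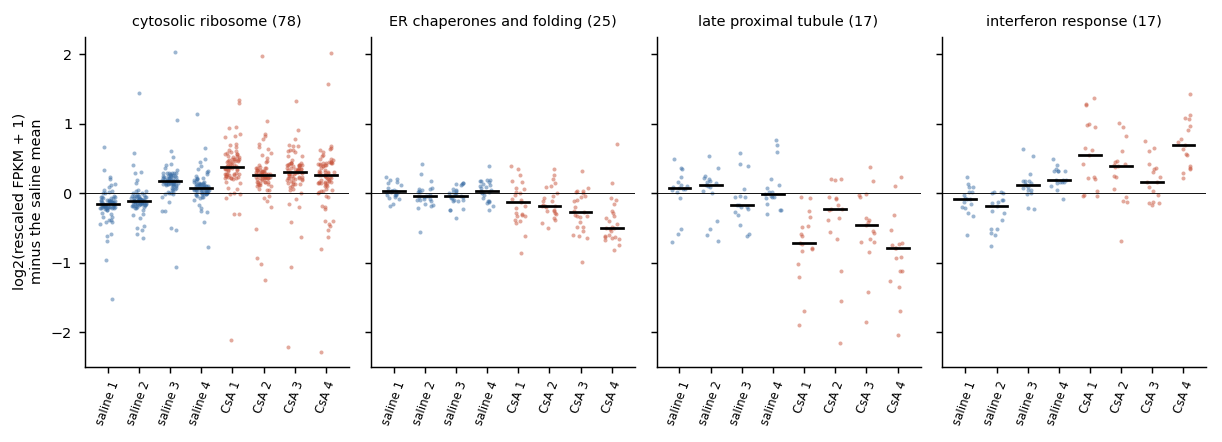
Difference of log2(rescaled FPKM + 1) from the saline mean for every tested member of 4 lists, by library (saline blue, cyclosporine A, abbreviated CsA, red). Black bars are the median of the list in that library. Ribosomal medians are higher in each drug library than in each saline library, and chaperone medians are lowest in cyclosporine A replicate 4.

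The 3 genes of glutathione synthesis lay lower. Gss, glutathione synthetase, was 186, 178, 178 and 184 with saline and 110, 86.4, 117 and 84.7 with cyclosporine A. It was called, with a fall of 0.88 (log2 fold change −0.88 ± 0.12 SE, limma adjusted p = 0.0251). The subunits of the enzyme of the step before it, named after their values had been seen, were apart as well and not called. Gclc was 1174, 1157, 1007 and 1006 with saline and 596, 845, 687 and 401 with cyclosporine A, and Gclm was 443, 466, 436 and 403 against 262, 349, 275 and 178. Of 25 genes of antioxidant defence 1 was called (against 0.409% of all genes), 4 did not overlap on the lower side and 1 on the higher side (against 6.76% and 4.85% of all genes). The median was −0.14, and −0.040 without cyclosporine A replicate 4. Cat, catalase, was 214, 219, 205 and 194 against 144, 161, 150 and 102, without overlap. Gstp1, a glutathione transferase, was 242, 414, 391 and 379 against 255, 114, 95.4 and 149, with overlap through cyclosporine A replicate 1.

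Ammonia and lipid metabolism each had a called fall. Glul, glutamine synthetase, which consumes ammonia in the proximal tubule, was 271, 292, 320 and 292 with saline and 176, 186, 150 and 148 with cyclosporine A (log2 fold change −0.83 ± 0.11 SE, limma adjusted p = 0.025). Me1, the malic enzyme that supplies NADPH for lipid synthesis, was 40.1, 36, 45.1 and 41.3 with saline and 26.1, 22.3, 22.2 and 20.6 with cyclosporine A, a fall of 0.81 (limma adjusted p = 0.025). All 10 lipogenic genes tested lay below 0, with a median of −0.38, and 2 of them did not overlap (against 6.76% of all genes), or 4 without saline replicate 2 or cyclosporine A replicate 3.

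Genes of tubular injury and of the interferon response lay higher, with 0 called in either list. Of 20 injury genes 6 did not overlap, all higher (against 4.85% of all genes, median 0.42). Lgals3, galectin 3, was 12.6, 12.1, 13.8 and 15 with saline and 22.7, 23.3, 17.8 and 32.1 with cyclosporine A, and Anxa2, annexin A2, was 20.1, 14.7, 17.9 and 21 against 32.7, 25.7, 25.6 and 34.6. Clu, the secreted chaperone clusterin, was 9.34, 5.89, 5.1 and 6.6 against 12.5, 32.5, 12.1 and 14.2, with replicate 2 far above the others. These 3 were apart, with limma adjusted p of 0.0693, 0.0752 and 0.0921.

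Of 17 interferon genes all lay above 0 and 5 did not overlap (against 4.85% of all genes, median 0.45). Without cyclosporine A replicate 4 the median was 0.25, and without replicate 3 the number apart was 8. Mx1, an antiviral GTPase, was 1.05, 0.75, 1.53 and 2.04 with saline and 4.95, 3.06, 2.87 and 5.16 with cyclosporine A. Oas1a, an RNA sensor, was 0.664, 0.847, 0.571 and 1.26 against 3.4, 2.67, 1.43 and 2.04, and Psmb9, an immunoproteasome subunit, was 5.39, 2.95, 5.35 and 6.33 against 10.6, 10.4, 6.47 and 10. The groups were apart and the limma adjusted p were 0.0601, 0.0814 and 0.109. The leukocyte list, given above, had a median of 0.025, which ran from −0.27 without cyclosporine A replicate 4 to 0.16 without replicate 1. With the mitochondrial share as a term the interferon median lay 0.15 above that of all genes.

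Immediate early genes, which cells switch on quickly after a stimulus, had 0 called and 5 of 17 not overlapping, all higher (against 4.85% of all genes, median 0.23). Egr1 was 0.845, 0.547, 0.402 and 0.811 with saline and 1.84, 1.97, 1.92 and 4.85 with cyclosporine A, Junb was 7.79, 8.8, 6.41 and 5.81 against 10.1, 9.96, 9.7 and 11.7, and Btg2 was 3.49, 2.97, 3.17 and 3.24 against 5.53, 5.29, 3.82 and 7.51. Each was apart, and cyclosporine A replicate 4 was the highest library in all 3.

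The target of the drug itself was examined last. Of 10 genes of calcineurin and NFAT signalling 0 were called, 2 did not overlap on the lower side and 1 on the higher side (against 6.76% and 4.85% of all genes, median −0.027). Ppp3ca and Ppp3cb, which encode catalytic subunits of calcineurin, were 2.25, 3.1, 2.52 and 2.22 against 1.35, 1.83, 2.04 and 1.74, and 4.39, 4.43, 4.63 and 4.59 against 3.65, 3.61, 4 and 3.1. Rcan1, the feedback inhibitor of calcineurin, was 4, 5.84, 5.35 and 5.37 with saline and 7.74, 8.58, 7.28 and 9.78 with cyclosporine A. All 3 were apart in the 8 libraries, with limma adjusted p of 0.216, 0.247 and 0.076. Of 15 cyclophilin genes 0 were called and 0 did not overlap, and of 14 genes of TGF-beta signalling and fibrosis 0 were called and 1 did not overlap, lower, a share near the 6.76% of all genes. That was Tgfbr2, a TGF-beta receptor, at 2.54, 1.49, 1.55 and 1.54 with saline and 1.19, 0.526, 0.777 and 0.503 with cyclosporine A. A pair of related genes outside these lists were called, and they are named after their values were seen. Ppidl1, a gene named for its likeness to the cyclophilin Ppid, was 0.479, 0.781, 0.823 and 0.546 with saline and 2.21, 2.09, 1.56 and 3.11 with cyclosporine A (log2 fold change 0.95, limma adjusted p = 0.0348). Tgfbi, a matrix protein induced by TGF-beta, was 11, 11.2, 9.89 and 11.2 against 5.8, 6.61, 6.46 and 6.57 and fell by 0.68 (limma adjusted p = 0.0251).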

How the data were processed

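Bulk RNA sequencing of entire kidneys gave 1 library per animal, made with an NEBNext kit per the labels' protocols. The authors deposited FPKM, fragments relative to gene length and library total, in a table of 32545 genes; HISAT2 and the build rn6 are named, per the submitters' processing notes, without role or version, and the counting program, annotation and strand setting are not given in the sources used here. Without strand, overlapping and antisense genes cannot be told apart. Columns were matched to samples by name.

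FPKM were relative to all fragments, mitochondrial ones included. Fragments behind each value were recovered, with 74.6% of values above 0 whole within 0.01 fragments at the listed gene length, and 4441 of 18892 detected genes whole only at a shorter length. The 37 mitochondrial genes were dropped and each library was rescaled by the median of ratios over 12404 genes above 0 in every library. Nuclear genes with at least 4 libraries at 0.5 rescaled FPKM (11537) were tested with limma 3.58.1 (R 4.3.3, eBayes with trend) on log2(rescaled FPKM + 1), group as the single term, and Benjamini-Hochberg adjustment over all of them. The pseudocount of 1 understates the change of low genes. A gene above the filter in a single group was tested through that group alone, which favours its separation. The fit was also run on simulated fragments with planted changes. These were larger than the median called change, and all genes and libraries shared the same setting for spread. That run therefore does not show how the fit performs on changes and libraries like those observed. Library measures were compared with exact permutation tests in Python 3.11.15. P-values measure the spread between these samples.

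Members, lists and tests were chosen with earlier results of these data known. Genes named were the 15 largest called rises and falls with a mean of at least 1 rescaled FPKM in the higher group and no overlap, every called member of a list and the 3 members with the smallest p, and 8 kidney markers; exceptions are named as such, and some genes are not reported here. Lists were described by counts and medians and not tested. Alternatives changed the pseudocount, filter, scaling, variance model, weights, covariates and libraries. Promoters came from RefSeq (GRCr8). Positions are as deposited.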

Additional observations from a re-analysis of the deposited data

Results flagged for a closer look

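Single libraries stood far from the other 3 of their group in the genes that follow. The gap exceeded Dixon's 95% critical value for 4 samples, which chance alone gives in about 1 of 20 groups. The rule was applied to both groups of every named gene, so many such flags are expected by chance. Values are rescaled FPKM. Among the genes of chaperones and folding, Herpud1 was highest in saline replicate 2 at 34.67, Hsp90b1 was highest in saline replicate 4 at 36.58, and Xbp1 was lowest in that same library at 18.64, so these saline values differ in direction between members. Rarres1 was highest in saline replicate 2 at 34.55 and fell whether or not that library is counted, since the next saline library was at 22.5 and the highest drug library at 11.6. Tgfbr2 was highest in saline replicate 1 at 2.539, as was Ndufa1 at 113.5, S100a6 lowest in saline replicate 2 at 32.2 and Tgfbi lowest in saline replicate 3 at 9.886.

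With cyclosporine A, Clu was highest in replicate 2 at 32.54 and Egr1 was highest in replicate 4 at 4.854. Psmb9 was lowest in replicate 3 at 6.468, close to the highest saline library, and Uqcrb, a subunit of respiratory complex III, was highest in that replicate at 40.59. AABR07015081.2, a protein-coding gene with no assigned name and a called rise, was lowest in saline replicate 4 at 12.7. The summed level of adrenal cortex markers was lowest in a saline library at 0.4411, at a level near 0 in all 8 libraries.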

How the results depend on the processing

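Upper quartile scaling, robust eBayes, a pseudocount of 0.5 and a stricter filter left 97, 100, 90 and 103 nuclear genes called, and other choices moved the count further. Against 102 nuclear genes called, of which 87 were protein-coding, limma called 65 and 55 with a pseudocount of 0.1. It called 1 and 0 with no filter on low values (2231 protein-coding genes at an unadjusted p under 0.05). With voom and quality weights on recovered fragments the counts were 254 and 243. Adjusted over protein-coding genes only, 61 of these were called, against 87. With the mitochondrial share as a covariate the nuclear and the protein-coding counts were both 0, with 323 protein-coding genes at an unadjusted p under 0.05. On FPKM as deposited they were 10242 and 9911, of which 9 protein-coding genes were higher, so the share of higher calls went from 48.3% to 0.0908%. With 1 library left out they ran from 1 to 124 and from 0 to 112. Higher calls were 39.6% of the protein-coding calls with a stricter filter, 37.5% with the replicate block and without saline vehicle replicate 2, 30.6% without cyclosporine A replicate 2 and 57.1% without cyclosporine A replicate 4.

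The replicate numbers do not pair the samples. Correlations of same-numbered deviations from the group means were 0.042, 0.081, −0.16 and 0.20, and a fit with the number as a block called 13 nuclear and 8 protein-coding genes.

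Of 104 named genes, 10 changed direction with the mitochondrial share as a covariate: Aqp2 (log2 fold change −0.31), Atp6v1g3 (−0.85), Calr (0.079), Cldn10 (0.10), Eng (0.14), Hspd1 (0.077), Lrp2 (0.24), Slc34a1 (1.00), Slc3a1 (0.067) and Umod (0.059). On FPKM as deposited Aqp2 lay at −0.28 relative to the median gene, a shift that this scale gives any abundant gene by construction. Aqp2 also turned with array weights (−0.21), with voom (−0.10) and without saline replicate 2 or cyclosporine A replicate 1 or 4 (−0.13 to 0.27 over all single libraries left out). Slc34a1 turned with sum scaling (0.011), array weights (0.18), voom (0.10) and without saline replicate 1 or 2 or cyclosporine A replicate 1 or 4 (−0.25 to 0.23 over all single libraries left out). The causes of the other turns were not tested.

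Among library measures, the difference in nuclear genes detected ran from −1692 to −1235 with 1 library left out, with an exact permutation p of 0.0571 without saline replicate 1 or 4, and that in the share of the 50 most abundant nuclear genes from −2.49 to −1.49 percentage points, with p = 0.0286 without cyclosporine A replicate 2. The mitochondrial share and the nuclear fragments kept their direction and their p of 0.0286 in all 8 such comparisons. Depth limits genes at low levels, since 1 fragment on a gene of 1 kilobase is worth 0.0145 rescaled FPKM in saline replicate 1 and 0.0738 in cyclosporine A replicate 4.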

Other observations

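Several other gene groups were counted the same way, where 4.85% of all genes were apart on the higher side and 6.76% on the lower. Of 23 genes of fatty acid oxidation 0 were called and 3 did not overlap, all lower (median log2 fold change −0.25). The median was −0.078 without cyclosporine A replicate 4, and 8 were apart without replicate 3. Of 14 genes of the tricarboxylic acid cycle 2 did not overlap, both lower, of 16 glycolytic genes 1, lower, and of 31 lysosomal genes 1 higher and 2 lower. The lower shares of the glycolytic and lysosomal genes were near that of all genes. Of 39 proteasome genes 2 were higher and 2 lower without overlap. Of 19 genes of cholesterol synthesis 14 lay below 0 (median −0.13), 4 were lower and 1 higher at an unadjusted p under 0.05, and 1 was apart, higher. The circadian clock had 1 of 16 apart, lower, also near that share. In the p53 and apoptosis list 2 of 15 did not overlap, both higher. Gadd45a, a DNA damage gene of that list, was 20.6, 20.7, 18.4 and 16.6 rescaled FPKM with saline and 29.8, 25.7, 35.4 and 24.8 with cyclosporine A and was not called (limma adjusted p = 0.0826).

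Of 16 Hox genes, which keep the positional identity of kidney cells, 1 was called (against 0.382% of all genes), 2 were apart on the higher side and 1 on the lower. Hoxb4 was 5.97, 8.7, 7.26 and 8.11 with saline and 19.2, 22.2, 21.1 and 13 with cyclosporine A (log2 fold change 1.21, limma adjusted p = 0.0251). Hoxb8 was the lower one, at 13.8, 14.4, 15.4 and 12.8 against 9.7, 7.15, 4.62 and 11.1, and was not called (limma adjusted p = 0.122). Of 11 collagen chains tested 1 did not overlap, higher, and 32 other chains were below the filter. The chain apart was Col6a1, with every saline value under the filter of 0.5, so it was tested through the drug libraries alone. Edn1, the gene of the vasoconstrictor endothelin 1, was 0.156, 0.503, 0.416 and 0.714 with saline and 0.943, 0.843, 1.13 and 0.69 with cyclosporine A, and the groups overlapped. Of 73 nuclear-encoded subunits of the respiratory chain 0 were called, and 2 were higher and 4 lower without overlap, no more than the shares of all genes. Atp5i and Uqcrb were higher without overlap (log2 fold changes 0.47 and 0.48) and Atp5a1 was lower without overlap (−0.36), and none of the 3 was called (limma adjusted p 0.115, 0.136 and 0.165).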
